A study of Glycine max with 12 samples.

Results

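The 100 most abundant transcripts of uncolonized soybean roots were chosen by mean FPKM over the 3 libraries of roots without a fungus, as the genes with the highest values. FPKM is a level that is divided by transcript length and by library size, so it can be compared between genes. The PR-1 genes with IDs from 13G251600 to 13G252400 were removed before ranking, 7 of which were listed in the tables. Of these, Glyma.13G252000 and Glyma.13G252300 would have ranked 2 and 36, with mean levels of 3519 and 737 FPKM in uncolonized roots. The 100 members were drawn from 49551 genes with a value above 0 in at least 1 library, and all 100 were among the 36323 genes that passed the filter on low counts.

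The study sequenced total RNA from soybean (Glycine max) roots in 12 libraries, 3 in each of 4 groups. NM roots had no arbuscular mycorrhizal (AM) fungus, and Ri roots carried Rhizophagus irregularis. Ga-H and Ga-L roots carried Glomus aggregatum at a high and a low degree of AM colonization. All groups share the root tissue, the CTAB-PBIOZOL extraction and the BGI library kit, and the labels give no cultivar, plant age or growth time. Nor do they state how many plants or pots stand behind each library, so a p-value here reflects spread among libraries that may be technical. In bulk roots, fewer cells of a type and less RNA per cell cannot be told apart.

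Arbuscular mycorrhizal fungi grow between and inside the cortical cells of a root, where they form branched arbuscules, and trade phosphate and other nutrients for sugars and lipids from the plant. In any tissue a small set of genes fills a large part of the messenger pool. In plant roots that set commonly includes genes for protein synthesis, water channels, cell walls, metal binding and defence. Because relative levels add up to a fixed total, a change in such genes also moves the shares of all others. The tables give only IDs, whose full form ends in Wm82.a2.v1, and none of the 49551 IDs matched the 59048 genes of the reference table. The members are therefore named by ID, without gene names or functions, and the root label could not be set against marker genes.

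Total depth was 10182200 to 11054762 expected counts per library, and the FPKM values of a library summed to 616875 to 638369. Every member had at least 352 expected counts in every library. Counting error was not set against the spread between libraries. Ri replicate 1 stood apart from the other Ri libraries over the members. In that library 15 members lay at least 2-fold above both other Ri libraries, and its correlation with their mean over the members' log2 levels was 0.669, against 0.776 and 0.830 for Ri replicates 2 and 3. NM replicate 2 held 5 members at least 2-fold below both other NM libraries, and Ga-L replicate 1 held 6 below and 3 above. Replicate 3 of Ga-H and replicate 3 of Ga-L each held 4 members at least 2-fold above both other libraries of their group, and these were the same 4 genes.

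The members ranged from 383 to 9220.0 FPKM in mean NM level, with a median of 560.5, where the median of all tested genes was 5.80 FPKM. In 23 members the mean NM level was above 1000 FPKM. The members just inside the limit were Glyma.15G199700, Glyma.13G013600 and Glyma.15G038100, with mean NM levels of 386, 384 and 383 FPKM. Just outside it were Glyma.01G083300 and Glyma.11G117300, both at 381 FPKM, and Glyma.09G019200 at 379.7 FPKM. The step across the limit was smaller than the SD of these genes over the NM libraries, which was 15.2 to 113 FPKM.

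Member transcripts were short. Their median length was 1283 bases, with a range of 216 to 3388, beside a median of 1743 bases over the tested genes. FPKM is divided by length, so the rule favours short transcripts and nothing is read from this difference. A list of 100 genes ranked by mean NM expected count shared 75 with the members. A single annotated transcript was given for 66 of the 100 members, beside 62.7% of the tested genes. The members lay on 19 chromosomes and on 2 unplaced sequences, with 10 on chromosome 13, 9 on chromosome 15 and none on chromosome 4. The coefficient of variation over the NM libraries had a median of 16.2% and ran from 1.17% to 69.5%.

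In the 3 NM libraries the members held 13.7%, 13.5% and 14.6% of the summed FPKM, a mean of 13.9% ± 0.605 (SD, n = 3). In Ri roots they held 11.5%, 9.72% and 10.4%, a mean of 10.5% ± 0.912. In Ga-H roots the shares were 10.2%, 11.2% and 11.5%, a mean of 11% ± 0.695. All 6 of these Ri and Ga-H shares lay below the NM shares. In Ga-L roots the shares were 10.7%, 13.2% and 14.5%, with a mean of 12.8% ± 1.96, so Ga-L replicate 1 lay among the Ri and Ga-H libraries and the other two near the NM libraries. The NM values chose the members, so the step from NM is a description and carries no test.

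Among the colonized groups, which played no part in the choice, the members' share was not shown to differ. The share in Ri was below that in Ga-H by a difference of -0.449 percentage points (exact permutation test, two-sided, p = 0.6, adjusted over 3 pairs of groups 0.6). The difference between Ri and Ga-L was -2.28 points (exact p = 0.2, adjusted 0.45), and that between Ga-H and Ga-L was -1.83 points (exact p = 0.3, adjusted 0.45). With 3 libraries against 3, the smallest p that this test can give is 0.1. Single libraries moved these differences by over 1.5 times without changing their sign. Ri minus Ga-H was -0.943 points without Ri replicate 1, -0.842 without Ga-H replicate 1, -0.180 without Ga-H replicate 3 and -0.0436 without Ri replicate 2. Ri minus Ga-L ran from -3.34 points without Ga-L replicate 1 to -1.42 without Ga-L replicate 3. Ga-H minus Ga-L ran from -2.89 to -0.967 points without the same 2 libraries.

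**Figure D1:**
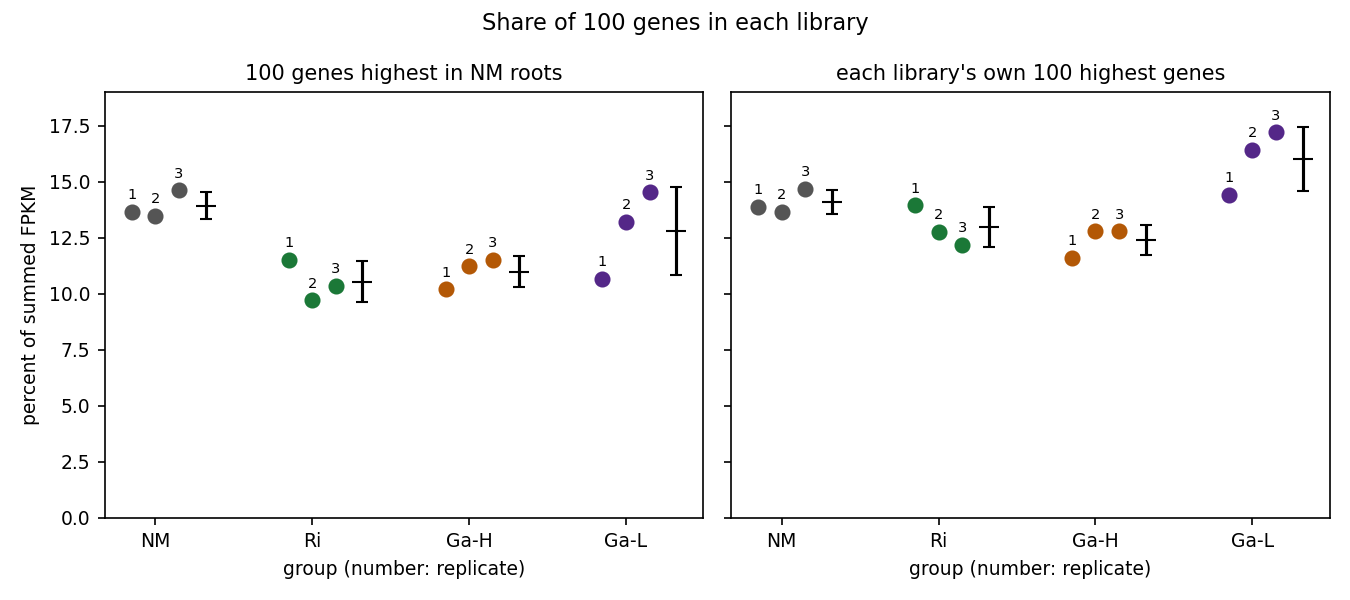
Percent of summed FPKM (y axis) held by 100 genes in each of the 12 libraries, by group (x axis); points are libraries with their replicate number, and the dash with bars beside them is the group mean with SD. In the panel of the 100 members, the NM libraries lie at 13.5% to 14.6% and the Ri libraries at 9.72% to 11.5%. In the panel of each library's own 100 highest genes, Ga-L lies at 14.4% to 17.2% and Ga-H at 11.6% to 12.8%. PR-1 genes 13G251600 to 13G252400 are left out of the lists in both panels.

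A different picture came from each library's own 100 most abundant genes, again with PR-1 genes 13G251600 to 13G252400 left out. Those genes held a mean of 0.688% of the summed FPKM in NM and 0.00143%, 0.00779% and 0.0626% in Ri, Ga-H and Ga-L. Leaving them out can therefore lower the NM share more than the others. The own-list share was 13.9%, 13.7% and 14.7% in NM, and 14%, 12.8% and 12.2% in Ri. It was 11.6%, 12.8% and 12.8% in Ga-H, and 14.4%, 16.4% and 17.2% in Ga-L. The Ga-L libraries all lay above the Ri and Ga-H libraries, and the Ga-H libraries all lay below the NM libraries.

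The mean own-list share of Ga-L was 16% ± 1.44, beside 12.4% ± 0.682 in Ga-H. Ga-H minus Ga-L was -3.62 points and Ri minus Ga-L was -3.05 points, each with an exact permutation p of 0.1, the smallest possible, and an adjusted p of 0.2 over 6 pairs. Ga-H minus NM was -1.68 points (exact p = 0.1, adjusted 0.2). Ri minus NM was -1.11 points (exact p = 0.3, adjusted 0.36) and Ri minus Ga-H 0.57 points (exact p = 0.6, adjusted 0.6). Ga-L minus NM was 1.94 points (exact p = 0.2, adjusted 0.3), and -0.137 points when shares were taken of the summed expected counts. Thus the order of Ga-L and NM depended on whether levels were divided by length. With 1 library left out, Ri minus Ga-H ran from 0.0768 points (without Ri replicate 1) to 0.961 (without Ri replicate 3), and was 0.176 without Ga-H replicate 1. Ri minus NM ran from -1.60 to -0.716 points without the same 2 Ri libraries, and Ga-H minus NM from -1.88 to -1.28. Ga-L minus NM ran from 1.35 points without Ga-L replicate 3 to 2.74 without Ga-L replicate 1. Ri minus Ga-L ran from -3.84 to -2.45 points, and Ga-H minus Ga-L from -4.41 to -3.02.

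Part of the NM list was replaced in each colonized group. A list chosen on NM levels favours members that leave it in other groups, so these counts are descriptions. The PR-1 genes were left out of each list here too. Ranked by group mean, 67, 74 and 64 of the 100 members were still among the 100 highest genes of Ri, Ga-H and Ga-L roots. Within the 200 highest genes there were 88, 96 and 87. By library, 70, 52 and 61 members were in the library's own 100 highest genes in Ri, beside 73, 72 and 71 in Ga-H and 61, 63 and 66 in Ga-L. Pairs of NM libraries shared 76 to 86 of their own 100 highest genes, pairs of Ri libraries 58 to 78, pairs of Ga-H libraries 82 to 84 and pairs of Ga-L libraries 76 to 82. An NM and an Ri library shared 45 to 70, which overlaps the pairs within Ri. An NM library shared 64 to 74 with a Ga-H library and 53 to 69 with a Ga-L library, below the pairs within those groups.

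Other genes entered the list as members left it. The 33 entrants of Ri held 3.30% of the summed FPKM in Ri and 0.553% in NM. For the 26 entrants of Ga-H these shares were 2.57% and 0.535%, and for the 36 entrants of Ga-L they were 4.57% and 0.624%. The highest entrant in Ga-L was Glyma.13G028500, at 2046 ± 695 FPKM and rank 6, from 10.4 ± 8.35 FPKM in NM. In Ri the highest was Glyma.16G037900, at 1338 ± 859 FPKM from 234 ± 44.3. In Ga-H it was Glyma.02G083500, at 1308 ± 308 FPKM from 366 ± 147, whose ID is next to those of the members Glyma.02G083600 and Glyma.02G083700. Entrants were picked for their level in the colonized group, so these are descriptions.

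The most abundant member was Glyma.09G092700, a gene with a transcript of 2835 bases. It measured 9055, 8432 and 10173 FPKM in the NM libraries and 3952, 4703 and 5125 in Ri. Its levels were 3195, 5021 and 4564 FPKM in Ga-H and 4972, 8136 and 9245 in Ga-L. It ranked first in every group mean, and its Ri and Ga-H libraries all lay below its NM libraries, while 1 Ga-L library lay within the NM range. Its share of the summed FPKM was 1.48% ± 0.141, 0.737% ± 0.102, 0.684% ± 0.160 and 1.18% ± 0.356 in NM, Ri, Ga-H and Ga-L roots.

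The log2 fold change of Glyma.09G092700 was -1.03 ± 0.30 (SE) in Ri and -1.14 ± 0.30 in Ga-H, with adjusted p of 0.0428 and 0.0371 in edgeR's quasi-likelihood test. In Ga-L it was -0.26 ± 0.30 (adjusted p = 0.597). Both calls were fragile to single libraries. The Ri call was lost without NM replicate 1, 2 or 3, Ri replicate 2 or 3, Ga-H replicate 2 or 3, or Ga-L replicate 2, with adjusted p of 0.0547 to 0.131. The Ga-H call was lost without NM replicate 1, 2 or 3, Ri replicate 3, Ga-H replicate 1, 2 or 3, or Ga-L replicate 2, with adjusted p of 0.0553 to 0.145. With only the 2 groups fitted, the Ri value was adjusted p = 0.0643.

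The next member by NM level was Glyma.15G128700, with a transcript of 1464 bases. Its NM libraries measured 3822, 1762 and 2749.6 FPKM and its Ri libraries 579.7, 509.9 and 422. In Ga-H it measured 532, 711 and 829 FPKM and in Ga-L 1203, 2323 and 2428. All Ri and Ga-H libraries were below every NM library, and the Ga-L libraries overlapped the NM range. Its log2 fold change was -2.48 ± 0.35 in Ri (edgeR adjusted p = 0.000839), -2.03 ± 0.35 in Ga-H (adjusted p = 0.00328) and -0.43 ± 0.34 in Ga-L (adjusted p = 0.416). Its rank by mean among all genes was 3 in NM, 62 in Ri, 33 in Ga-H roots and 7 in Ga-L roots.

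Among the other members of the first 10, Glyma.12G217400 and Glyma.08G230500 were set apart by a single Ri library. Glyma.12G217400 measured 2524, 2494 and 2553 FPKM in NM roots, 3547, 607 and 837 in Ri roots, 1759, 2363 and 1452 in Ga-H roots and 1812, 3896 and 4004 in Ga-L roots. Glyma.08G230500 measured 1868, 1847 and 1692 FPKM in NM roots, 2963, 820.3 and 1057 in Ri roots, 1499, 1734 and 1539.6 in Ga-H roots and 1583, 2962 and 3153 in Ga-L roots. In each, Ri replicate 1 was the highest Ri library and replicates 2 and 3 were below every NM library, and neither gene passed the test in any comparison with all 12 libraries. Without Ri replicate 1, Glyma.12G217400 was called lower in Ri than in NM, Ga-H and Ga-L, with log2 differences of -1.80, -1.33 and -2.21 (edgeR adjusted p = 0.003, 0.0433 and 0.00197). Without it, Glyma.08G230500 was called lower in Ri than in NM and Ga-L, with log2 differences of -1.0 and -1.56 (edgeR adjusted p = 0.0175 and 0.00357). Ri replicate 1 was set apart by the members' own levels, those of Glyma.12G217400 and Glyma.08G230500 included. Leaving it out favours a fall in both genes and keeps only Ri replicates 2 and 3, so these calls are descriptions.

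Glyma.16G170100 and Glyma.20G141600 stayed among the 13 highest genes of each group mean. Glyma.16G170100 measured 2119, 2161 and 3274 FPKM in NM roots, 1472, 3302 and 3991 in Ri roots, 2023, 2830.2 and 2971 in Ga-H roots and 1955, 3494 and 3710.0 in Ga-L roots, with overlapping groups. Glyma.20G141600 measured 1742, 1818 and 1655 FPKM in NM roots, 1592, 1722 and 2034 in Ri roots, 1558, 1686 and 1770.4 in Ga-H roots and 1541, 1466 and 1727 in Ga-L roots. Its log2 fold changes from NM were 0.01, -0.09 and -0.09 in Ri, Ga-H and Ga-L, each with an SE of 0.17.

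Among the first 10, Glyma.01G127200 and Glyma.20G247800 were also called lower in Ri. Glyma.01G127200 measured 2043, 1791 and 2263 FPKM in NM roots, 1232, 759.9 and 861 in Ri roots, 1223, 1358 and 1332 in Ga-H roots and 1794, 1843 and 2085 in Ga-L roots. Glyma.20G247800, with a transcript of only 321 bases, measured 1664, 2387 and 1899.7 FPKM in NM roots, 1046, 890.0 and 1192 in Ri roots, 956, 939 and 901 in Ga-H roots and 1340.0, 1136 and 974 in Ga-L roots. The first fell in Ri by a log2 fold change of -1.12 ± 0.21 (edgeR adjusted p = 0.00533), or adjusted p = 0.0524 with only those 2 groups fitted, and its Ga-L values overlapped NM. The second was below NM in all 9 colonized libraries. Its log2 fold changes were -0.95 ± 0.17, -1.12 ± 0.18 and -0.74 ± 0.17 in Ri, Ga-H and Ga-L (edgeR adjusted p = 0.00447, 0.00173 and 0.0167). The Ga-L call was lost without NM replicate 2 or Ga-L replicate 2 or 3, with adjusted p of 0.0673 to 0.0757.

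The others of the first 10 were Glyma.10G206900 and Glyma.13G347700. Glyma.10G206900 measured 1177, 2141 and 2158 FPKM in NM roots, 842, 852 and 2099.8 in Ri roots, 1335, 1091 and 2213 in Ga-H roots and 877, 502 and 534 in Ga-L roots. Its Ga-L mean was its lowest, and its spread within NM, Ri and Ga-H was wide. Glyma.13G347700 measured 1468, 1952 and 1665 FPKM in NM roots, 2055, 974 and 969.7 in Ri roots, 1218, 1555 and 1551 in Ga-H roots and 1196, 1488 and 1437 in Ga-L roots. It passed the test in no comparison with all 12 libraries, and against NM it was called lower in Ri without Ri replicate 1 (log2 difference -0.87, edgeR adjusted p = 0.0134). This call too is a description, since Glyma.13G347700 is among the members that set that library apart.

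The difference in the members' share was spread over most of them, with 2 large negative terms in Ri and Ga-H. From NM to Ri the share moved by -3.40 points, to which 83 members with a negative difference gave -4.31 points and 17 with a positive difference 0.910 points. Glyma.09G092700 gave -0.745 points and Glyma.15G128700 -0.366 of these, while Glyma.17G230500 and Glyma.14G093100 gave 0.317 and 0.254 points. From NM to Ga-H the share moved by -2.95 points, with 79 negative members giving -3.58 points and 21 positive members 0.634. Of these, Glyma.09G092700 gave -0.798 points and Glyma.15G128700 -0.336. To Ga-L it moved by -1.12 points, with 71 negative members giving -2.85 points and 29 positive members 1.73. In Ga-L, Glyma.09G092700 gave -0.303 points and Glyma.10G206900 -0.192, while Glyma.17G230500 and Glyma.14G093100 gave 0.221 and 0.213.

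As a group the members' fold changes lay below 0. The median log2 fold change from NM was -0.44, -0.27 and -0.21 for Ri, Ga-H and Ga-L, beside 0.03, 0.00 and 0.01 over all tested genes. In Ri 85 of 100 members lay below 0, in Ga-H 81 and in Ga-L 60, where 46.9%, 49.6% and 49.5% of the tested genes did. Since NM levels chose the members, nothing is read from this excess. A choice on high NM values favours values below 0 against the same NM libraries, so the choice was repeated with 1 NM library choosing and the other two measured. The median log2 ratio of FPKM was then -0.43, -0.39 and -0.31 in Ri over the 3 choices. It was -0.26, -0.17 and -0.19 in Ga-H, and -0.16, -0.30 and -0.20 in Ga-L. With all 3 NM libraries choosing, the same measure was -0.42, -0.24 and -0.25. Each choice still rests on an NM library, so genes higher in the NM group stay favoured and these medians are descriptions.

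**Figure D2:**
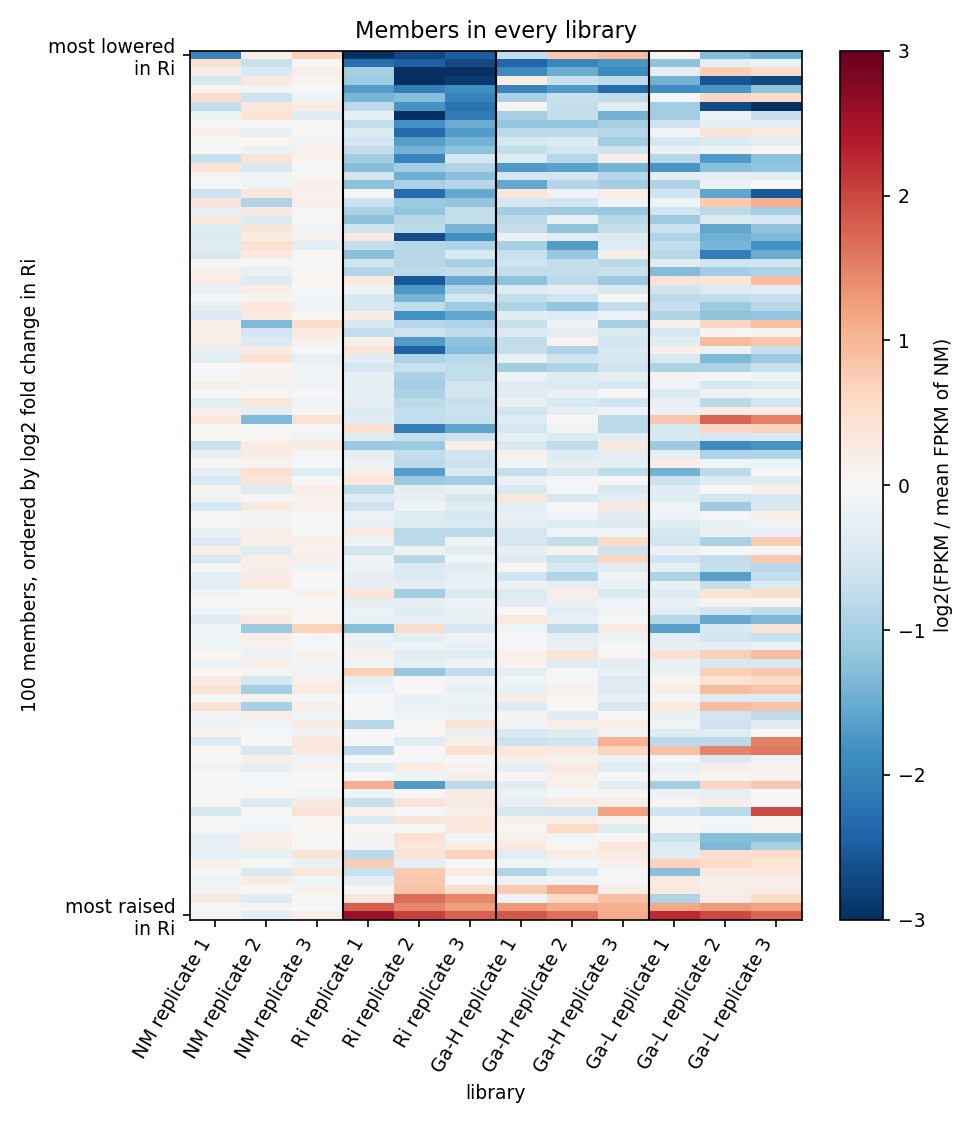
Each row is 1 of the 100 members and each column 1 of the 12 libraries; color is log2(FPKM / mean FPKM of NM), and rows are ordered by the log2 fold change in Ri. Blue below the NM mean covers most Ri rows, where 85 of 100 members had a log2 fold change below 0, and the column of Ri replicate 1 differs from its 2 neighbours.

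In Ri against NM, 2 members were called higher and 19 lower at an adjusted p of 0.05 in edgeR's quasi-likelihood test, beside 9.08% of all tested genes called higher and 4.04% lower (13.1% in all). The 79 other members did not pass the test. Since NM levels chose the members, nothing is read from these shares, or from the counts without overlap below. The members called lower had log2 fold changes from -2.85 to -0.57. Without Ri replicate 1, the library that stood apart, 3 members were called higher and 45 lower, while the share of all tested genes called rose to 27.9%. The members' own levels set that library apart, so member counts without it are descriptions, here and in the comparisons below. Leaving out any 1 library gave 12 to 48 members, beside 7.46% to 27.9% of tested genes, with 12 without Ri replicate 2 or 3 and 13 without NM replicate 3. When the fit held no libraries but those of Ri and NM, 2 members were called higher and 5 lower, beside 5.65% of tested genes. Ri levels did not overlap NM in 3 members that were higher and 41 that were lower, beside 17.3% and 12.9% of tested genes.

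The members called higher in Ri were Glyma.14G093100 and Glyma.17G230500. Glyma.14G093100 measured 475, 369 and 519 FPKM in NM roots, 2708, 1869.8 and 1558 in Ri roots, 1642, 1428 and 989.7 in Ga-H roots and 2128, 1801 and 1504 in Ga-L roots. Glyma.17G230500 measured 1012, 1122 and 1046 FPKM in NM roots, 3661, 2942 and 2527 in Ri roots, 2626, 2346 and 2204 in Ga-H roots and 2386, 2577 and 2463 in Ga-L roots. For both genes every colonized library lay above every NM library.

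The log2 fold changes of Glyma.14G093100 were 2.15 ± 0.27, 1.54 ± 0.26 and 2.04 ± 0.27 in Ri, Ga-H and Ga-L (edgeR adjusted p = 0.000322, 0.00321 and 0.000347). Those of Glyma.17G230500 were 1.5 ± 0.18, 1.14 ± 0.18 and 1.27 ± 0.18 (adjusted p = 0.000223, 0.00159 and 0.000556). Glyma.14G093100 rose from rank 83 in NM to ranks 4, 9 and 11 in the colonized groups, in the order given, and Glyma.17G230500 from rank 21 to ranks 2, 3 and 5. Both transcripts are 578 bases long, the only 2 members of equal length. Their log2 levels had r = 0.96 over the 12 libraries, a description, since those points share the groups. If the 2 genes are near-identical copies, reads could have been divided between them in the authors' counting, and this was not tested.

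**Figure D3:**
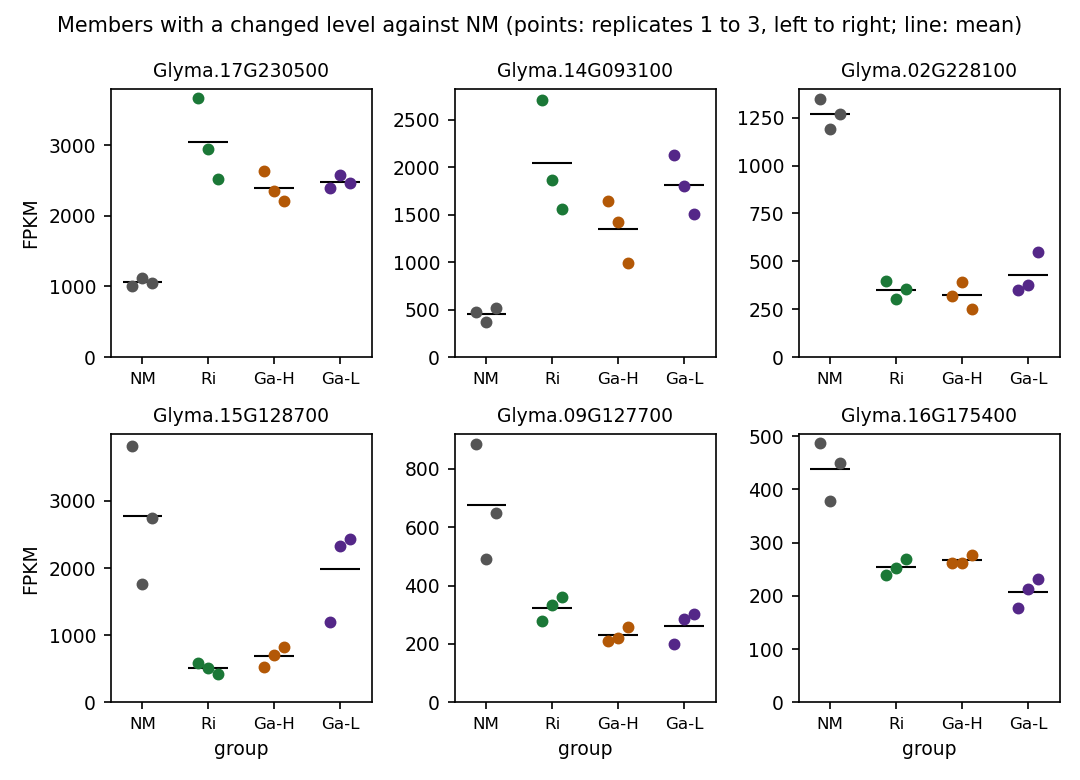
FPKM (y axis, from 0) of 6 members called in comparisons with NM, by group (x axis); points are replicates 1 to 3 of a group from left to right and lines the group mean. Glyma.17G230500 and Glyma.14G093100 lie higher in all 9 colonized libraries than in NM, and Glyma.02G228100 lies lower in all 9.

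The largest falls in Ri were those of Glyma.03G024600, Glyma.15G128700, Glyma.15G115000 and Glyma.02G228100. Glyma.03G024600 measured 105, 465 and 675 FPKM in NM roots, 39.0, 63.4 and 74.8 in Ri roots, 248, 730.0 and 791 in Ga-H roots and 427, 169 and 151 in Ga-L roots. Its Ri libraries were below all 9 others, and its NM libraries themselves ran from 105 to 675 FPKM. Its log2 fold change in Ri was -2.85 ± 0.69 (edgeR adjusted p = 0.0205), and the call was lost without NM replicate 2 or 3, or Ri replicate 2 or 3, with adjusted p of 0.0564 to 0.0718, and with only 2 groups fitted (adjusted p = 0.0637).

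Glyma.15G115000 measured 384, 634 and 574 FPKM in NM roots, 252, 54.9 and 72.8 in Ri roots, 618, 334 and 314 in Ga-H roots and 199, 88.6 and 80.2 in Ga-L roots. Ri and Ga-L libraries were below all NM libraries, and Ga-H overlapped NM. Its log2 fold changes were -2.08 ± 0.58 in Ri and -2.07 ± 0.58 in Ga-L (edgeR adjusted p = 0.0372 and 0.0367). The Ri call was lost without NM replicate 1, 2 or 3, Ri replicate 2 or 3, Ga-H replicate 2, or Ga-L replicate 2, with adjusted p of 0.0511 to 0.128, and with only 2 groups fitted (adjusted p = 0.11). The Ga-L call was lost without NM replicate 2 or 3, Ga-H replicate 2, or Ga-L replicate 2 or 3, with adjusted p of 0.0507 to 0.144.

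Glyma.02G228100 fell in each of the 3 comparisons with NM. It measured 1345, 1192 and 1270.5 FPKM in NM roots, 398, 303 and 355 in Ri roots, 319.7, 394 and 252 in Ga-H roots and 349.7, 379 and 550.5 in Ga-L roots, with all colonized libraries below all NM libraries. Its log2 fold changes were -1.87 ± 0.23, -2.01 ± 0.23 and -1.54 ± 0.23 in Ri, Ga-H and Ga-L (edgeR adjusted p = 0.000303, 0.000195 and 0.000925). All 3 calls held under each of the 22 alternatives run. The same was true of Glyma.16G175400, named after its values were seen, which measured 488, 377 and 450.1 FPKM in NM roots, 239.6, 252 and 269 in Ri roots, 261, 262 and 278 in Ga-H roots and 177, 212 and 231 in Ga-L roots. Its log2 fold changes were -0.81 ± 0.15, -0.75 ± 0.15 and -1.03 ± 0.15 in Ri, Ga-H and Ga-L (edgeR adjusted p = 0.00502, 0.00981 and 0.000849).

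In Ga-H against NM, 2 members were called higher and 10 lower, beside 6.25% and 1.87% of all tested genes (8.12% in all), and 88 did not pass. NM levels chose the members here too, so nothing is read from these shares, the calls kept or the counts without overlap. The members called lower had log2 fold changes from -2.03 to -0.74, and 7 of the 10 calls held under all 22 alternatives. Glyma.09G127700, which with Glyma.15G128700, Glyma.02G228100 and Glyma.09G092700 fell most, measured 884, 493 and 647 FPKM in NM roots, 279, 332 and 360.1 in Ri roots, 208, 221 and 258 in Ga-H roots and 201, 284 and 302 in Ga-L roots. Every colonized library was below every NM library. Its log2 fold changes were -1.08 ± 0.23, -1.58 ± 0.24 and -1.31 ± 0.23 in Ri, Ga-H and Ga-L (edgeR adjusted p = 0.0107, 0.00117 and 0.00324). The Ri call was lost with only 2 groups fitted (adjusted p = 0.055). Ga-H levels did not overlap NM in 4 members that were higher and 31 that were lower, beside 19.1% and 10.1% of tested genes.

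In Ga-L against NM, 5 members were called higher and 16 lower, beside 8.78% and 4.86% of all tested genes (13.6% in all), and 79 did not pass. As in Ri and Ga-H, NM levels chose the members, so nothing is read from these shares or the counts without overlap. Leaving out 1 library gave 6 members without Ga-L replicate 2, beside 6.77% of tested genes, 7 without NM replicate 2 (6.66%), 8 without Ga-L replicate 3 (8.22%), 11 without NM replicate 3 (8.57%) and up to 27 without Ri replicate 1 (20.1%). Ga-L levels did not overlap NM in 8 members that were higher and 39 that were lower, beside 17.1% and 22% of tested genes. Besides Glyma.14G093100 and Glyma.17G230500, the largest rises were those of Glyma.15G228300 and Glyma.11G132800.

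Glyma.15G228300 measured 689, 219.8 and 750.0 FPKM in NM roots, 441, 330.5 and 346 in Ri roots, 423, 567 and 318 in Ga-H roots and 968, 1861 and 1576 in Ga-L roots. Glyma.11G132800 measured 567, 391 and 667 FPKM in NM roots, 316, 548 and 743 in Ri roots, 671, 654 and 846 in Ga-H roots and 999, 1501 and 1625 in Ga-L roots. In both, the Ga-L libraries were above all 9 others. Their log2 fold changes from NM in Ga-L were 1.46 ± 0.42 and 1.39 ± 0.31 (edgeR adjusted p = 0.0414 and 0.013). The first call was lost without NM replicate 1 or 2, Ri replicate 3, Ga-H replicate 1 or 2, or Ga-L replicate 2 or 3, with adjusted p of 0.05 to 0.149. It was also lost with only 2 groups fitted (edgeR adjusted p = 0.0665) and with replicate number as a block (0.0701). Without a filter on low counts it was lost in edgeR (adjusted p = 0.051) and in limma. The second was lost without NM replicate 2 or Ga-L replicate 2 or 3, with adjusted p of 0.0509 to 0.0644.

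The largest falls in Ga-L were those of Glyma.15G115000 and Glyma.16G164400, followed by Glyma.02G228100 and Glyma.10G206900. Glyma.16G164400 measured 261, 534 and 501 FPKM in NM roots, 251, 128 and 92.4 in Ri roots, 460.4, 263 and 347 in Ga-H roots and 208, 67.1 and 52.7 in Ga-L roots. Ga-L replicate 1 was the highest Ga-L library, and all Ga-L libraries were below NM. The log2 fold change was -1.94 ± 0.55 for Glyma.16G164400 and -1.48 ± 0.42 for Glyma.10G206900 (edgeR adjusted p = 0.0384 and 0.0408). The first call was lost without NM replicate 2 or 3, Ga-H replicate 1, 2 or 3, or Ga-L replicate 2 or 3, with adjusted p of 0.0505 to 0.15. The second was lost without NM replicate 2 or 3, Ga-H replicate 1, or Ga-L replicate 2 or 3, with adjusted p of 0.0559 to 0.155.

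Between the colonized groups none of the libraries compared had chosen the members. The NM libraries still enter the spread shared by the fit, so these tests are not fully independent of the rule. In Ri against Ga-L, 3 members were called higher and 7 lower, beside 1.56% and 2.7% of all tested genes (4.26% in all). Groups did not overlap in 8 members that were higher and 24 that were lower in Ri, beside 13.9% and 8.65% of tested genes. The median log2 difference of the members was -0.14, beside 0.03 over all tested genes. Without Ri replicate 1, 4 members were called higher and 30 lower, beside 14.9% of tested genes called in either direction. When any 1 library was left out, 1 to 34 members were called, beside 0.605% to 14.9% of tested genes, with 1 without Ga-L replicate 2 and 2 without Ga-L replicate 3, Ri replicate 2 or Ri replicate 3. With only the Ri and Ga-L libraries fitted none was, beside 0.0288% of tested genes.

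Lower in Ri were Glyma.15G228300, Glyma.15G128700 and Glyma.20G220900, with differences of -2.05 ± 0.43, -2.05 ± 0.35 and -1.98 ± 0.31 on the log2 scale (edgeR adjusted p = 0.0265, 0.0133 and 0.0106). Glyma.20G220900 measured 949, 432 and 602 FPKM in NM roots, 257, 275 and 164 in Ri roots, 334, 416 and 388 in Ga-H roots and 631, 1021 and 971 in Ga-L roots. In all 3 genes every Ga-L library was above every Ri and every Ga-H library. The call of Glyma.20G220900 held with each library left out in turn and not with only 2 groups fitted (adjusted p = 0.0747).

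The call of Glyma.15G228300 was lost without Ri replicate 2 or 3, or Ga-L replicate 2 or 3, with adjusted p of 0.0758 to 0.109. That of Glyma.15G128700 was lost without Ri replicate 3 or Ga-L replicate 2, with adjusted p of 0.059 to 0.0671. The other members lower in Ri were Glyma.10G006900, Glyma.11G132800, Glyma.01G127200 and Glyma.01G230200, with differences of -1.69 to -0.94.

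**Figure D4:**
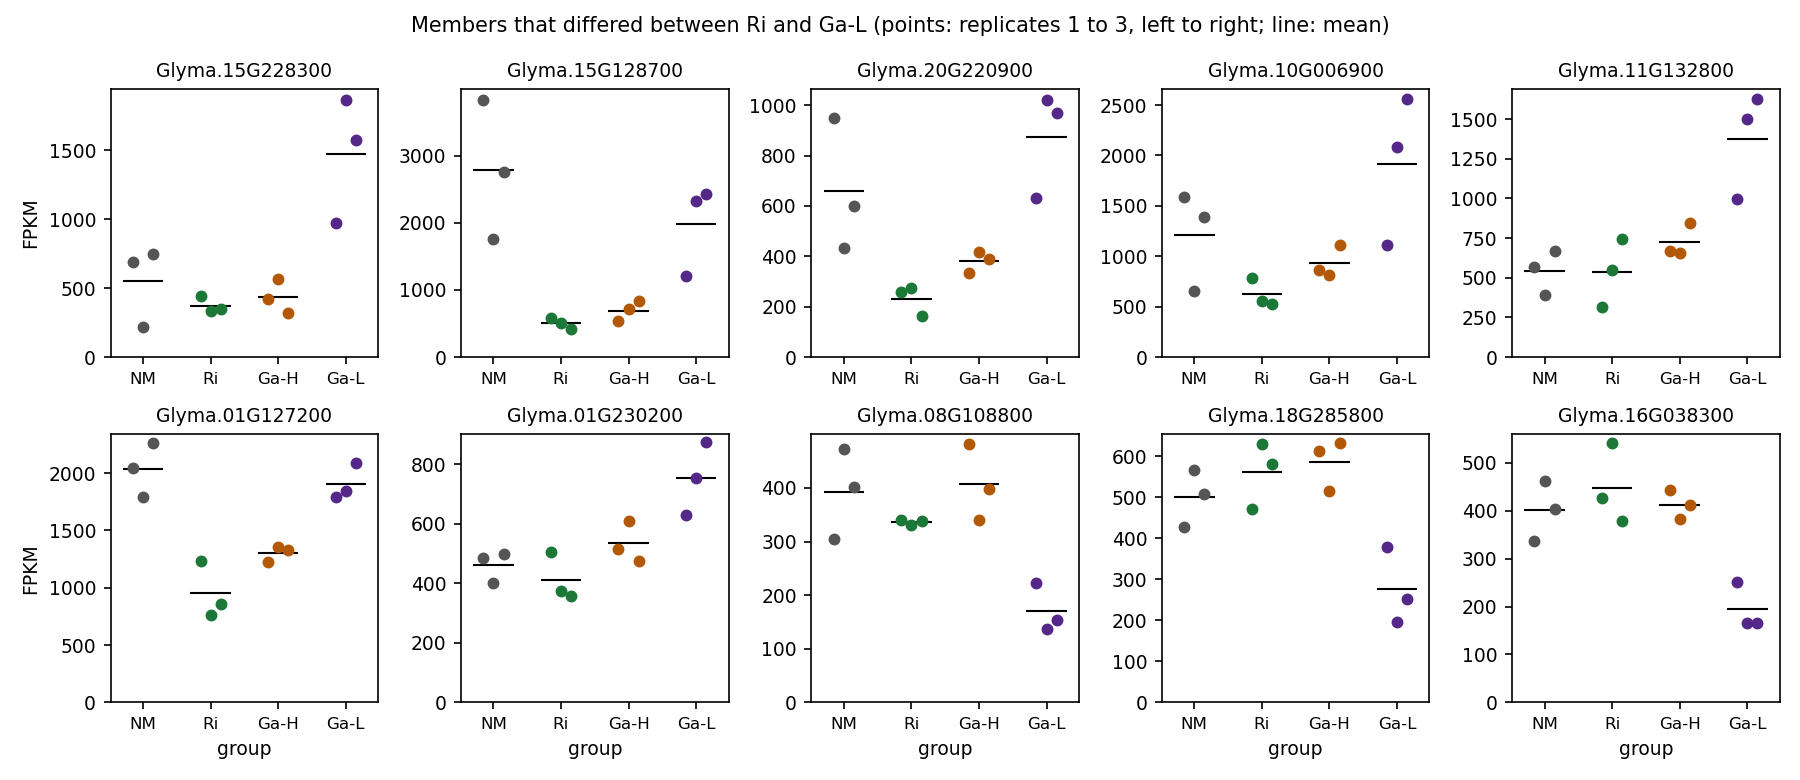
FPKM (y axis, from 0) of the 10 members called between Ri and Ga-L, by group (x axis); points are replicates 1 to 3 of a group from left to right and lines the group mean. In Glyma.15G228300, Glyma.15G128700 and Glyma.20G220900 the Ga-L points lie above the Ri points, and in Glyma.16G038300, Glyma.18G285800 and Glyma.08G108800 below them.

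Higher in Ri were Glyma.16G038300, Glyma.18G285800 and Glyma.08G108800. Glyma.16G038300 measured 338, 462 and 403 FPKM in NM roots, 427, 541 and 378 in Ri roots, 444, 382 and 412 in Ga-H roots and 251, 166 and 166 in Ga-L roots. Glyma.18G285800 measured 426, 565 and 508 FPKM in NM roots, 471, 629.5 and 581 in Ri roots, 613, 514 and 631 in Ga-H roots and 379, 196 and 253 in Ga-L roots. For Glyma.08G108800 the levels were 305, 473 and 401 FPKM in NM roots, 340.1, 332 and 339 in Ri roots, 483, 340.1 and 398 in Ga-H roots and 222, 138 and 153 in Ga-L roots. In all 3 genes the Ga-L libraries were the lowest of the 12, and Ri and Ga-H overlapped NM.

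The differences between Ri and Ga-L were 1.14 ± 0.22, 0.95 ± 0.23 and 0.91 ± 0.22 on the log2 scale (edgeR adjusted p = 0.0189, 0.0431 and 0.0431). The call of Glyma.16G038300 was lost without Ri replicate 2 or Ga-L replicate 2 or 3, with adjusted p of 0.0588 to 0.0936. That of Glyma.18G285800 was lost in 10 of 12 fits that left out 1 library, all but those without Ri replicate 1 or Ga-L replicate 1, with adjusted p of 0.0517 to 0.156. That of Glyma.08G108800 was lost in 8 of 12, all but those without NM replicate 1 or 2, Ri replicate 1, or Ga-L replicate 1, with adjusted p of 0.0556 to 0.172.

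In Ga-H against Ga-L, the comparison of degrees of colonization by the same fungus, 1 member was called higher in Ga-H and none lower, beside 0.374% and 0.465% of all tested genes (0.84% in all). It was Glyma.08G108800, with a log2 difference of 1.18 ± 0.22 (edgeR adjusted p = 0.0422). The call was lost without NM replicate 3, Ri replicate 3, Ga-H replicate 1, 2 or 3, or Ga-L replicate 2 or 3, with adjusted p of 0.0578 to 0.209. At an unadjusted p of 0.05 there were 26 members. The share of tested genes at that level is not given here, so nothing is read from this count. DESeq2 called 19 members, beside 6.06% of tested genes, and limma 3, beside 1.62%. With edgeR, 15 members were called without Ri replicate 1 in the shared fit, beside 6.26% of tested genes, and 15 with only the Ga-H and Ga-L libraries fitted, beside 7.06%. Groups did not overlap in 17 members that were higher and 19 that were lower in Ga-H, beside 19.8% and 10.3% of tested genes.

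In Ri against Ga-H no member was called by edgeR in either direction, beside 0.00826% of all tested genes called higher and 0.00826% lower (0.0165% in all). At an unadjusted p of 0.05 there were 4 members by edgeR, 10 by DESeq2 and 9 by limma. The share of tested genes at that level is not given here, so nothing is read from these counts. After adjustment DESeq2 called 1 member, beside 0.765% of tested genes, and limma none, beside 0.101%. Without Ri replicate 1, edgeR called 14 members, all lower in Ri, beside 6.24% of tested genes. Groups did not overlap in 1 member that was higher and 6 that were lower in Ri, beside 5.84% and 6.82% of tested genes.

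The members with the smallest changes from NM were Glyma.10G251900, Glyma.20G141600, Glyma.13G249600 and Glyma.11G170300. Glyma.10G251900 measured 1303, 1269.6 and 1313 FPKM in NM roots, 1304, 1174 and 1471 in Ri roots, 1320.4, 1442 and 1273 in Ga-H roots and 1211, 1367 and 1363 in Ga-L roots. Its largest log2 fold change from NM was 0.07 in size, with an SE of 0.16. Glyma.13G249600 had group means of 399.9 ± 10.6, 438 ± 120.2, 441 ± 15.7 and 404 ± 10.8 FPKM in NM, Ri, Ga-H and Ga-L. Those of Glyma.11G170300 were 457 ± 22.4, 505 ± 60.8, 504 ± 167 and 448 ± 28.7. The largest log2 fold change from NM was 0.09 for Glyma.20G141600, 0.11 for Glyma.13G249600 and 0.12 for Glyma.11G170300. A p that missed the threshold does not show these levels to be equal.

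There were 4 pairs of members with neighbouring IDs, whose levels ran together to different degrees. Glyma.15G228200 and Glyma.15G228300 had r = 0.95 over the log2 levels of the 12 libraries, with 916, 322 and 1162 FPKM of the former in NM and 886, 1247 and 1483 in Ga-L. Glyma.12G217300 and Glyma.12G217400 had r = 0.91, and the former measured 2233, 327 and 604 FPKM in Ri, where replicate 1 was again the highest. Glyma.09G092700 and its neighbour Glyma.09G093000 had r = 0.47, and the latter measured 1735, 1249 and 2099.6 FPKM in NM and 1065, 2910.4 and 1983 in Ri. Glyma.02G083600 and Glyma.02G083700 had r = 0.13, and the former, with 216 bases the shortest member, had a mean NM level of 751 ± 110.1 FPKM. These correlations are descriptions over libraries that share groups. Where neighbours are near-identical copies, their separate values are uncertain.

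Within groups, the replicate 3 libraries of Ga-H and Ga-L held the same 4 members at their top. Glyma.13G013600 measured 275, 378 and 499.6 FPKM in NM roots, 419.8, 369.6 and 443 in Ri roots, 273, 264 and 888 in Ga-H roots and 254, 220.5 and 1480.0 in Ga-L roots. Glyma.U005800, on an unplaced sequence, measured 288, 306 and 926 FPKM in Ga-H and 262, 256 and 1299 in Ga-L. Glyma.13G023300 and Glyma.13G016700 reached 1402 and 882 FPKM in Ga-H replicate 3, and 1606 and 981 in Ga-L replicate 3. In each gene both libraries lay at least 2-fold above the other libraries of their group.

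The pattern reached beyond the members. Of the 36323 tested genes, 80 (0.220%) were at least 1.5 times as high in both G. aggregatum replicates 3 as in the other 4 G. aggregatum libraries. The same rule gave 54 genes for replicates 1 and 23 for replicates 2. Of the 80, 38 (47.5%) lay on chromosome 13, where 7.05% of tested genes lie. Just outside the list, Glyma.U007200 at rank 105 and Glyma.13G011200 at rank 115 showed it too. The labels record no batch or cultivar, and what sets these 2 libraries apart was not tested.

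Deviations from the group mean also ran together between some libraries of different groups. Over the 100 members, NM replicate 2 and Ga-L replicate 1 deviated with r = 0.626, beside 0.361 over all tested genes. NM replicate 1 and Ga-L replicate 2 had r = 0.639, beside 0.218 over all tested genes. Other pairs ran in opposite directions. Over the members, r was -0.597 for NM replicate 1 and Ga-L replicate 1, and -0.539 for NM replicate 2 and Ga-L replicate 2. Deviations within a group sum to 0 for each gene, so positive and negative values imply each other in part. Between Ga-H and Ga-L, the libraries numbered 1, 2 and 3 had r = 0.460, 0.625 and 0.406 over the members, and 0.219, 0.149 and 0.0424 over all tested genes. The members share libraries and scaling, so these are descriptions. Ga-L replicate 1 was also the Ga-L library with the lowest share for the members, 10.7%, and the differences in share without it are given above.

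**Figure D5:**
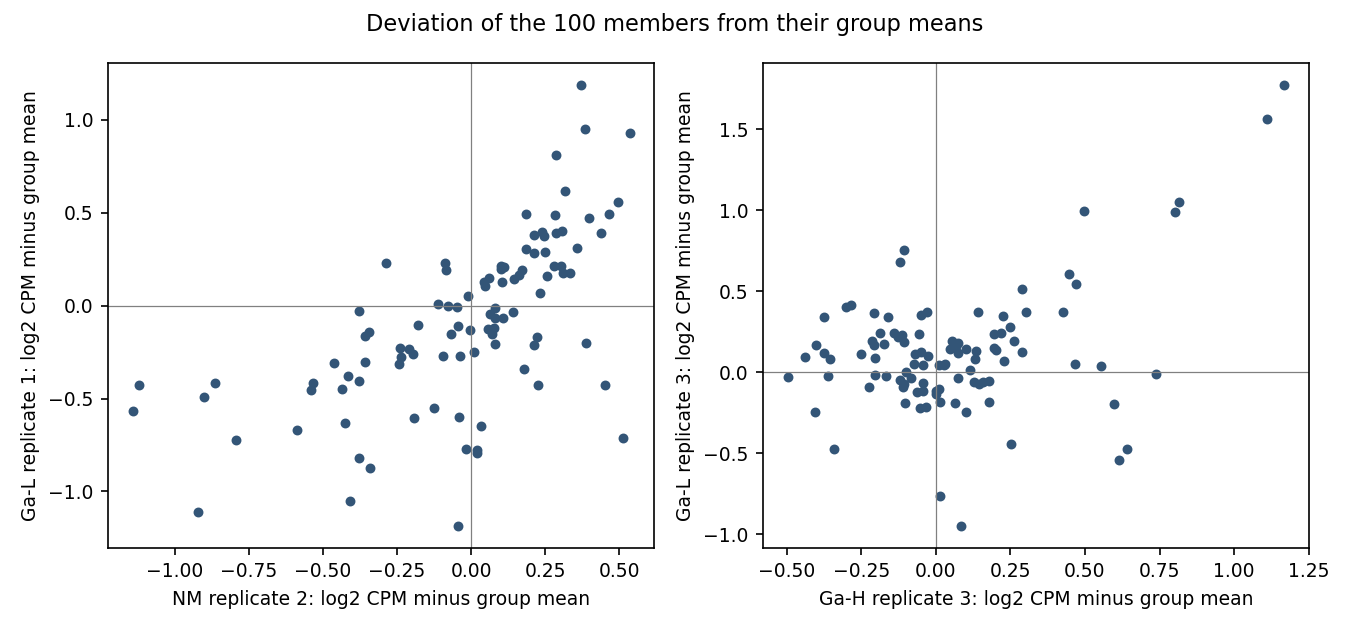
Deviation of each of the 100 members (points) from its group mean, in log2 CPM, in 1 library on the x axis against another on the y axis. NM replicate 2 and Ga-L replicate 1 run together with r = 0.626; for Ga-H replicate 3 and Ga-L replicate 3 (r = 0.406) 4 members lie far up both axes.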

How the data were processed

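Total RNA of 12 soybean root libraries was measured by RNA-seq. For each library and listed gene, the deposited tables hold an expected count, an FPKM value and a length, per the file headers. Bowtie2, HISAT and RSEM are named in the submitters' processing notes, with no version or role, and strand handling is not given in the sources used here. Expected counts are estimates that divide reads matching several genes among them, so near-identical copies have uncertain values. A gene missing from a table was set to 0.

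Genes were ranked by mean NM FPKM after removal of PR-1 genes 13G251600 to 13G252400. The members, lists and tests were chosen with earlier results of these data known. Expected counts were rounded to whole numbers and tested with edgeR 4.0.16 (TMM scaling, filterByExpr, robust quasi-likelihood fit of 4 group means over 12 libraries, 8 residual degrees of freedom) in R 4.3.3. P-values were adjusted by Benjamini-Hochberg over 36323 genes, with a threshold of 0.05. Fold changes are log2 and relative to the TMM-scaled library total. Shares are percents of summed FPKM, compared by exact permutation tests. Named members were the 10 highest in NM, up to 4 rises and 4 falls per comparison with NM, up to 3 each way between colonized groups, the steadiest 4, neighbours by ID and the genes at the limit. Tests used DESeq2 1.42.0, and limma 3.58.1 on log2(FPKM + 1), as alternatives, with other scalings, filters, member choices and each library left out. The edgeR step was tested on simulated counts with known changes. The deposited expected counts give 10182200 to 11054762 per library. Intervals for counting error were not computed, and SDs over libraries are given.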

Additional observations from a re-analysis of the deposited data

Results flagged for a closer look

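In 11 cases a member's change from NM differed between colonized groups by a test of the difference itself, which is edgeR's contrast of those groups over all 36323 tested genes. Between Ri and Ga-L, the difference was 1.14 log2 units for Glyma.16G038300, 0.95 for Glyma.18G285800 and 0.91 for Glyma.08G108800, higher in Ri. It was -2.05 for Glyma.15G228300, -2.05 for Glyma.15G128700 and -1.98 for Glyma.20G220900, lower in Ri. Also lower in Ri were Glyma.10G006900, Glyma.11G132800, Glyma.01G127200 and Glyma.01G230200, by -1.69, -1.44, -1.07 and -0.94. Between Ga-H and Ga-L, the difference was 1.18 for Glyma.08G108800. In each of the 11 cases the 3 libraries of the first group did not overlap the 3 of Ga-L. The edgeR adjusted p-values ran from 0.0106 to 0.0431, and with only Ri and Ga-L fitted none of the first 10 was called.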

How the results depend on the processing

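The fits with DESeq2 called more members than edgeR, at 37, 19 and 30 for Ri, Ga-H and Ga-L against NM, 1 in Ri against Ga-H, 26 in Ri against Ga-L and 19 in Ga-H against Ga-L. Its calls over all tested genes were 17.3%, 10.7%, 17.7%, 0.765%, 8.69% and 6.06% in that order, against 13.1%, 8.12%, 13.6%, 0.0165%, 4.26% and 0.84% for edgeR. With only the 2 groups compared in the fit, the counts were 7, 20, 23, 0, 0 and 15 in the same order, beside 5.65%, 11.8%, 18.5%, 0.00571%, 0.0288% and 7.06% of tested genes. With members chosen by the mean over the 9 colonized libraries they were 35, 29 and 33 against NM, where the share of tested genes called is that of the unchanged fit. That list shared 71 of its 100 genes with the members. Its choice favours genes higher in the colonized libraries than in NM, so nothing is read from its counts. Between Ga-H and Ga-L, edgeR called 1. Library totals with no scaling factor gave 2, beside 1.27% of tested genes, and no filter on low counts 2, beside 0.661%. For limma on log2(FPKM + 1) the count was 3, beside 1.62%, and 2 with no filter, beside 0.571%. With limma on log2(FPKM + 0.1) it was 3, beside 1.31%, and with 50 genes in place of 100 none (0) was called. Leaving out 1 library moved the counts over 12 to 48, 9 to 18 and 6 to 27 against NM, and over 0 to 14 for Ri against Ga-H, 1 to 34 for Ri against Ga-L and 0 to 15 for Ga-H against Ga-L. The own-list share of Ga-L minus NM turned from 1.94 to -0.137 points with expected counts. Of 1430 checks of single members' calls, 1193 kept the call and 237 lost it, and no call changed direction. Other scalings moved the median of all tested genes by under 0.1 log2 units. The cause of these changes was not tested.

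With the replicate block, 20, 12, 16, 0, 7 and 0 members were called, beside 11.8%, 7.31%, 12.7%, 0.011%, 3.51% and 0% of tested genes. The block left uncalled Glyma.08G108800 in Ga-H against Ga-L (adjusted p = 0.0768), and Glyma.18G285800, Glyma.08G108800 and Glyma.15G228300 in Ri against Ga-L (adjusted p = 0.0727, 0.0668 and 0.0506). In Ga-L against NM it left uncalled Glyma.15G228300 and Glyma.18G285800, among others (edgeR adjusted p = 0.0701 and 0.0608). The numbers share no stated source. Deviations of same-numbered libraries correlated at -0.397 to 0.230 over tested genes. Between Ga-H and Ga-L they were 0.219, 0.149 and 0.0424, not all above 0.1, so the numbers were not taken as pairs. Over the 100 members these 3 correlations were 0.460, 0.625 and 0.406, a hint from the data and not the design. Every other Ga-H and Ga-L pair was below 0. Deviations within a group sum to 0 for each gene, so these negative values follow in part from the positive ones and add no separate support. With 3 libraries per group, shares cannot pass 0.05 in an exact test.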
